A study of Mus musculus with 19 samples.

Results

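The 9 genes described here encode regulators of G protein signalling: Rgs2, Rgs3, Rgs4, Rgs6, Rgs7, Rgs8, Rgs10, Rgs12 and Rgs14. The rule that picks them uses gene names only, although the set was drawn up with earlier results of these data known, and all 9 were found by Ensembl identifier among the 24130 genes that the deposited tables list. RGS proteins share a domain that speeds the hydrolysis of GTP on activated G protein alpha subunits, and so shorten the signal that a receptor passes to adenylyl cyclases, phospholipases and ion channels. In neurons they set how fast receptors for dopamine, acetylcholine, serotonin, opioids and glutamate switch their targets on and off. The members fall into 3 families. Rgs2, Rgs3, Rgs4 and Rgs8 belong to the R4 family, most of whose proteins are small and hold little besides the RGS domain. Rgs6 and Rgs7 belong to the R7 family, whose proteins are stable only when bound to the atypical beta subunit encoded by Gnb5. Rgs10, Rgs12 and Rgs14 belong to the R12 family, in which Rgs12 and Rgs14 carry a second G protein contact, the GoLoco motif, that holds inhibitory alpha subunits in their GDP form.

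Polyadenylated RNA was sequenced from 6 laminar segments of primary somatosensory cortex (S1) of male C57BL/6 mice (C57BL/6J by the study's methods) aged 56 days, with no treatment or transgene. By the labels, segment A was mostly layers 1 to 3 and B mostly layer 4, C and D were both mostly layer 5, E was mostly layer 6, and F was mostly layer 6b, and by the study's methods C was the upper and D the lower part of layer 5. Libraries A, C, D, E and F were each 1 pool of 8 mice, whereas B was sequenced as B1 and B2, each from 4 littermates, so only B has replicates (n = 2). By the study's methods all segments came from the same 8 mice, so the 7 libraries share animals and are not independent samples of mice. The segments were cut by hand and overlap adjoining layers. Layer markers followed the cuts: Rorb, a layer 4 gene, was highest in B1 and B2, and Ctgf, a layer 6b gene, reached 167 FPKM in F against 1.24 in A. FPKM, fragments per kilobase of exon scaled to the size of the library, is a level per length and so can be compared between genes.

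The libraries held an estimated 31549000 (A) to 75579000 (B2) fragments on listed transcripts, and the members drew from 224 fragments (Rgs3 in A) to 77981 (Rgs4 in B2). The deposited 95% confidence intervals cover counting and the assignment of fragments to transcripts in 1 library, and not the spread between mice. The share of mitochondrial transcripts fell from 21.8% of summed FPKM in A to 5.03% in F but was 7.76% in B1 and 18.2% in B2, so the litters of segment B also differed in it. Its part in differences between B1 and B2 was not tested. The median gene was 0.56 higher in F than in A on the log2 scale, so a gene that kept its share of the other transcripts appears to rise with depth. In bulk tissue, fewer cells of a type and less RNA per cell cannot be told apart. The 8 oligodendrocyte markers rose together from a sum of 326 FPKM in A to 12506 in F, with a positive slope past the trend test in all 8. The 5 neuronal markers (Snap25, Syt1, Rbfox3, Stmn2 and Nefl) summed to 1172 FPKM in A, 2690 in D and 1889 in F.

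Promoter sequences are shown for the members with the lowest and the highest slope among those that passed the trend test (Rgs4 and Rgs10), and for Rgs8, whose 3 start sites correspond to 3 transcripts measured separately. Each line gives the 250 bases before an annotated RefSeq start on build GRCm38.p6, 5′ to 3′ on the gene's strand, with capitals marking matches on either strand to 4 motifs. TATAAA stands for the TATA box. GGGCGG stands for the GC box. The third motif is the box named CCAAT. The last is the core of a cyclic AMP response element, read as TGACG. None of the 4 contains another. The regions are chr1:169747643-169747892 (minus strand) for Rgs4, chr7:128418173-128418422 (minus strand) for Rgs10, and chr1:153652787-153653036, chr1:153665024-153665273 and chr1:153665423-153665672 (plus strand) for the start sites of Rgs8-201, Rgs8-203 and Rgs8-202.
Rgs4: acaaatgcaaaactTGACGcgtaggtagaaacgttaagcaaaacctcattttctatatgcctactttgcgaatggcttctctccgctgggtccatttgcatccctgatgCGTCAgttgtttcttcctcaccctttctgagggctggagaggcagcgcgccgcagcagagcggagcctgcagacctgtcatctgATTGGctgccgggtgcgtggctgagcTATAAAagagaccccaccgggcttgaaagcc
Rgs10: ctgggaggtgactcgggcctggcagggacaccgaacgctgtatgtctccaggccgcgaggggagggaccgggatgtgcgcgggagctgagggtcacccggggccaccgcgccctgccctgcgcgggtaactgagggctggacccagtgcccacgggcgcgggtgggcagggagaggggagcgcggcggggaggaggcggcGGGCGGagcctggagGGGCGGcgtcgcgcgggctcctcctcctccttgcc
Rgs8-201: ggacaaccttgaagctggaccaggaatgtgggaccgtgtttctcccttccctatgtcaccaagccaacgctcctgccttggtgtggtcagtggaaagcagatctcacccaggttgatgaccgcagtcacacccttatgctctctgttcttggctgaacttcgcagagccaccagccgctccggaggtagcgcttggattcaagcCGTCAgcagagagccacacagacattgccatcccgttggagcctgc
Rgs8-203: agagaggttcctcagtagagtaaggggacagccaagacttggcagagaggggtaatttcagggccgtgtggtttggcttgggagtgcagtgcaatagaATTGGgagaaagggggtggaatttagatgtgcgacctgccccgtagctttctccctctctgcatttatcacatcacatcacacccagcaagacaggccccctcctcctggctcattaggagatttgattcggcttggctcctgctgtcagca
Rgs8-202: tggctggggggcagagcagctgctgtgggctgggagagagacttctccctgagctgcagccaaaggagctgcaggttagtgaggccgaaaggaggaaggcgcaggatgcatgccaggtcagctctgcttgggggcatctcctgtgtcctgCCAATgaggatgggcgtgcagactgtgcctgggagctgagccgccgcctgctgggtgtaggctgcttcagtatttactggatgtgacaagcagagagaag
The Rgs4 window held a TATA box that begins 31 bases before the start, a CCAAT box on the opposite strand and 2 TGACG matches. TATAAA occurs in 12.4% of the 32851 RefSeq mouse windows of this length, CCAAT in 33.8%, GGGCGG in 32.7% and TGACG in 17.8%. The Rgs10 window had a GC content of 76.4% and 2 GC boxes, 50 and 35 bases before the start, and no match to the other letters. The 3 Rgs8 windows had no TATAAA and no GGGCGG match. A match describes letters only and is not a binding site. Of the 9 members, 8 had an entry, with 12 start sites in all.

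Across the 7 libraries Rgs4 was by far the most abundant member, with a mean of 193 FPKM. It was followed by Rgs7 (32.9), Rgs2 (17.3), Rgs10 (17.0), Rgs8 (12.9), Rgs6 (11.99), Rgs14 (9.27), Rgs12 (6.72) and Rgs3 (3.61). The interval of Rgs4 lay above that of Rgs7, and that of Rgs7 above that of Rgs2, in all 7 libraries. The next places were not separated: the interval of Rgs2 lay above that of Rgs10 in 2 libraries, that of Rgs10 above Rgs8 in 4, and that of Rgs8 above Rgs6 in 1. The order also changed with depth, since Rgs8 at 23.5 FPKM and Rgs10 at 25.4 FPKM came close in F to Rgs7 at 26.3 FPKM. The summed level of the 9 members fell from 446 FPKM in B2 and 365 in B1 to 178 in F, and Rgs4 made up most of this sum in every library except E and F.

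**Figure D1:**
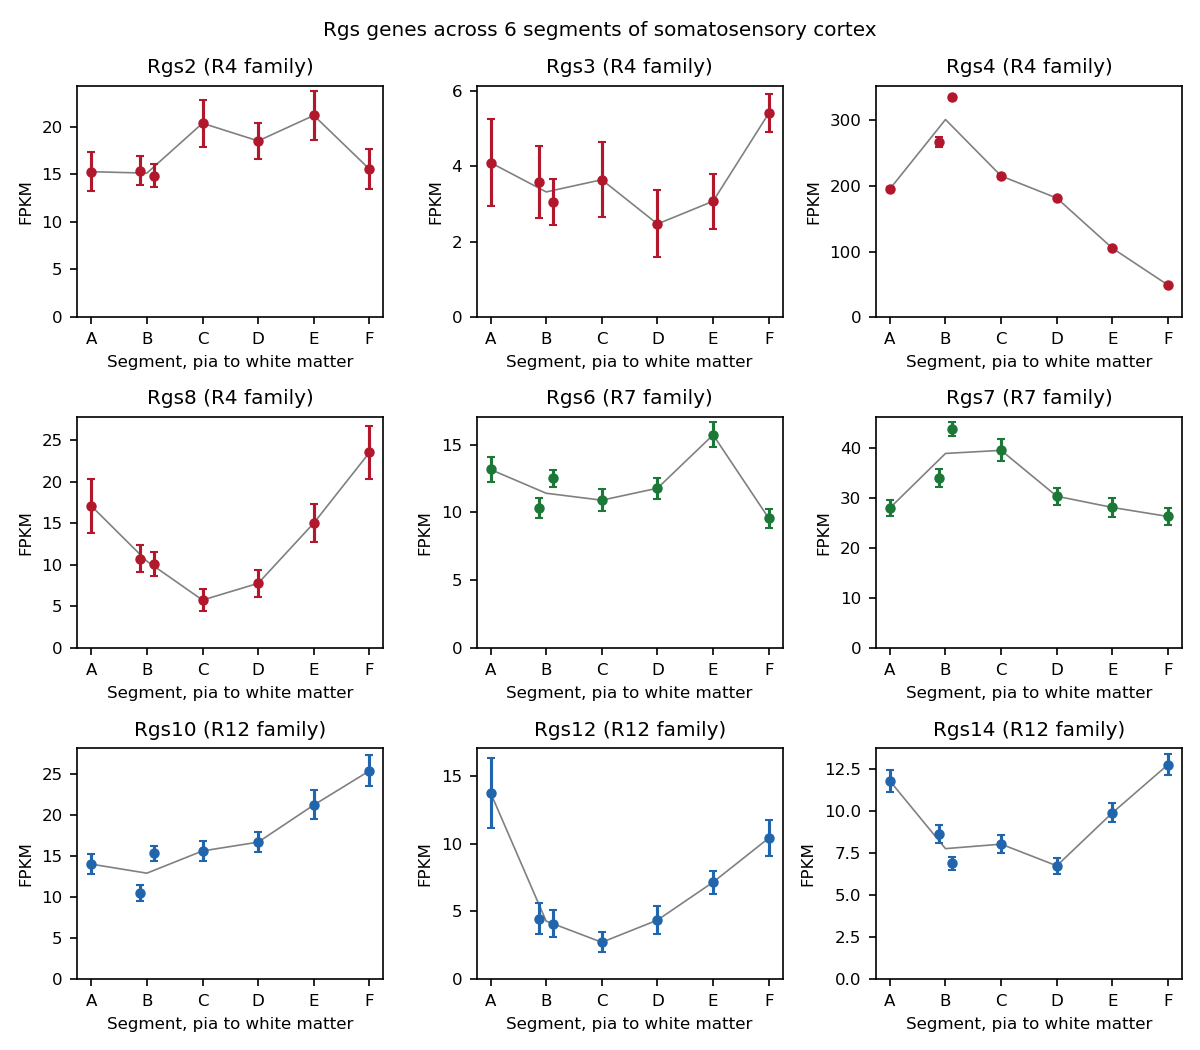
Level of each member (FPKM, linear axis from 0) in 6 segments ordered from the pia to the white matter. Points are libraries with the deposited 95% confidence intervals, B1 and B2 are drawn side by side and the grey line joins segment values. Rgs4 falls from B to F, Rgs10 is highest in F, and Rgs8, Rgs12 and Rgs14 are higher in A and F than in C and D.

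A trend across segments was tested with limma's moderated F-test of a linear and a quadratic term of segment position on log2(FPKM + 0.1), with Benjamini-Hochberg adjustment over all genes tested. The slope is the change in log2 level per segment from A to F, and a positive curvature means higher levels at the outer segments than in the middle. Unless stated otherwise, passing and the adjusted p beside a slope or a curvature refer to both terms together. Genes entered when their widest 95% interval was at most 50% of their mean FPKM, which kept 11409 genes and 6 of the 9 members. Rgs8 lay just outside this limit at 50.6%, Rgs3 stood at 64.0% and Rgs12 at 76.8%, while Rgs2, the kept member nearest to it, stood at 29.7%. Of the 6 members tested, 3 passed (Rgs4, Rgs10 and Rgs14), against 43.5% of all genes tested. With a limit of 100%, all 9 members entered and 5 passed, adding Rgs8 and Rgs12, against 40.1% of all genes. Values below for Rgs3, Rgs8 and Rgs12 are from that wider fit. The median gene had a slope of 0.09, so slopes are also given relative to it. With the 6 segments entered as a factor, which leaves 1 residual degree of freedom, no member and no gene passed (limma, 1 of 6 members and 2111 genes at an unadjusted p below 0.05), and that fit is not among the alternative fits counted below. The segment with the highest level was the same under 3 other scalings for 3 members, Rgs4 (B), Rgs10 (F) and Rgs12 (A), and was another one under at least 1 of them for the other 6. Because 6 segments share 7 libraries, the error of these fits is the scatter of libraries around a smooth curve with 4 residual degrees of freedom, not the spread between animals.

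**Figure D2:**
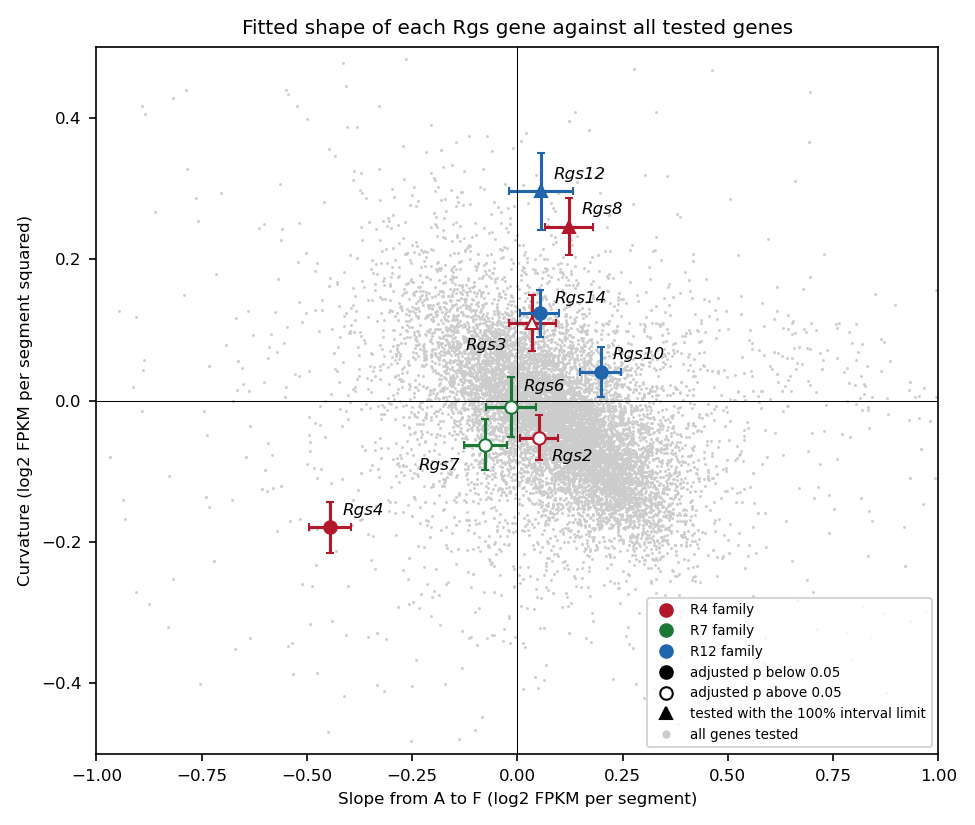
Fitted slope (log2 FPKM per segment) against curvature (log2 FPKM per segment squared) of the 9 members, with standard errors, over 11335 of the tested genes in grey (74 lie outside the axes). Filled symbols mark adjusted p below 0.05 and triangles mark members fitted with the 100% limit. Rgs4 lies far to the lower left, Rgs10 to the right, and Rgs12 and Rgs8 at the top.

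Among the R4 family, Rgs4 showed the widest range of any member. Rgs4 is abundant in cortical neurons and acts on both the inhibitory and the Gq class of alpha subunits. Its gene lies at chr1:171671608-171677773 (mm9, ENSMUSG00000038530). Its level was 195 FPKM in A, 267 and 336 in B1 and B2, 215 in C and 181 in D, 105 in E, then 48.7 in F. The B libraries were the highest, E and F the lowest, and the 95% intervals of the 6 segments did not overlap in any of the 15 pairs. The mean of B was 6.18 times the level in F. The slope was -0.45 ± 0.05 per segment (SE, 7 libraries, limma adjusted p = 0.00342), or -0.54 relative to the median gene, and the curvature was -0.18 ± 0.04. Only 8.06% of tested genes passed with a slope below 0. Rgs4 passed in all 15 alternative fits of the trend, with slopes from -0.61 to -0.28 and adjusted p from 0.00224 to 0.0298, but not with the segments as a factor (adjusted p = 0.267). Rgs4 thus fell from B to F. The summed neuronal markers stood at 2013 FPKM (B1) and 2142 FPKM (B2). Their sum was above both of these values in C, D and E, but below both in F, at 1889 FPKM. Rbfox3, a neuronal splicing factor in that list, fell from 337 FPKM in A to 107 in F, with a slope of -0.32 ± 0.04 (limma adjusted p = 0.00562). Most of the list went the other way: 3 of the 5 passed with a slope above 0 (Snap25 0.18, Syt1 0.25 and Stmn2 0.12). Nefl passed with a slope of -0.05. The part of neuronal content in the fall of Rgs4 was not tested.

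Rgs8, best known from Purkinje cells of the cerebellum, had the opposite arrangement, with its lowest values in layer 5. Its gene lies at chr1:155500155-155544797 (mm9, ENSMUSG00000042671). Its level was 17.1 FPKM in A, 10.7 and 10.1 in B1 and B2, 5.77 in C and 7.77 in D, 15.0 in E, then 23.5 in F. F was the highest and C the lowest, a ratio of 4.07, and the B1 and B2 intervals overlapped. After median of ratios scaling A was higher than F (22.3 against 20.5 FPKM), and C was again the lowest. The fit gave a curvature of 0.25 ± 0.04 and a slope of 0.12 ± 0.06 (limma adjusted p = 0.0096 for both terms together). It passed in 11 of 13 alternative fits, with adjusted p from 0.00781 to 0.528. It was lost when only a slope was fitted and without library A (adjusted p = 0.0503), and without library F the slope turned to -0.07. Markers of the striatum, which lies beneath the white matter, had a related arrangement. All 7 were above 0 in every library, their sum ran from 28.4 FPKM in C to 76.7 in F, and 4 of the 7 were highest in F. Drd1 rose from 0.711 FPKM in A to 11.8 in F, while Penk stood at 36.2 in A and 35.6 in F. Their part in the level of Rgs8 was not tested.

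Rgs2 and Rgs3 varied less. Rgs2, an activity-induced gene whose product prefers Gq, lies at chr1:145846468-145851291 (mm9, ENSMUSG00000026360). Its level was 15.3 FPKM in A, 15.4 and 14.9 in B1 and B2, 20.3 in C and 18.5 in D, 21.2 in E, then 15.5 in F. The values in C, D and E stood above those of the other 4 libraries, with a ratio of 1.40 between E and the mean of B. This order did not hold under other scalings: after median of ratios scaling A was the highest at 19.9 FPKM, and after GC correction A (24.2) and B1 (18.4) were above C, D and E. The trend did not pass (limma adjusted p = 0.282). Rgs3, at chr4:62244635-62364052 (mm9, ENSMUSG00000059810), was the least abundant member, with 4.09 FPKM in A, 3.58 and 3.05 in B1 and B2, 3.64 in C and 2.47 in D, 3.07 in E, then 5.40 in F. F was the highest, its interval overlapped that of A, and the trend did not pass (limma adjusted p = 0.126, and 0.0481 to 0.766 over 13 alternative fits). Of these, Rgs3 passed after median of ratios scaling (adjusted p = 0.0481), where A was the highest. Rgs3 overlaps the antisense gene Gm11209, and the libraries do not mark strand, so reads of the pair cannot be told apart.

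In the R7 family neither member passed the trend test in the reported fit. Rgs7, at chr1:176989348-177421261 (mm9, ENSMUSG00000026527), had 28.0 FPKM in A, 34.1 and 43.9 in B1 and B2, 39.6 in C and 30.4 in D, 28.1 in E, then 26.3 in F. B2 and C were the highest and F the lowest, but A was the highest segment after GC correction. The slope was -0.08 ± 0.05, or -0.17 relative to the median gene, and the trend did not pass (limma adjusted p = 0.21). After scaling by median of ratios, which centres the libraries on the median gene, Rgs7 passed (slope -0.18, adjusted p = 0.0496), and it passed after GC correction (slope -0.24, adjusted p = 0.0132), in a range of 0.0132 to 0.377 over 15 alternative fits. Rgs6, at chr12:83752816-84528030 (mm9, ENSMUSG00000021219), had 13.2 FPKM in A, 10.3 and 12.5 in B1 and B2, 10.9 in C and 11.8 in D, 15.7 in E, then 9.56 in F. E stood above every other library with an interval from 14.8 to 16.6 FPKM, and F was the lowest. A was above E after median of ratios scaling (17.2 against 14.1 FPKM) and after GC correction (18.3 against 13.8). The trend did not pass (limma adjusted p = 0.955). Rgs6 overlaps Dpf3, so fragments in the shared stretch may come from either gene.

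The obligate partner Gnb5 rose from 32.7 FPKM in A to 60.6 in D and stood at 49.3 in F (slope 0.12 ± 0.04, limma adjusted p = 0.0247). Its slope was close to that of the median gene, 0.09, so little of it is a rise relative to other transcripts. Rgs7bp, which anchors R7 complexes to the membrane, had 112 FPKM in A and 44.4 in F, with a slope of -0.19 ± 0.05. Its trend did not pass for both terms together (limma adjusted p = 0.0603), whereas the slope term alone did (limma adjusted p = 0.0303). Gpr158, an orphan receptor that binds Rgs7, had 7.49 FPKM in A against 45.4 in B1, 38.1 in B2 and 23.5 in F, and its trend did not pass (limma adjusted p = 0.188). Of the 5 R7 partners listed for this purpose, 4 were in the tables and 3 were tested, and Gnb5 was the one that passed. Gpr179 stayed under 0.1 FPKM in every library.

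In the R12 family, Rgs10 rose with depth. Rgs10 is a small RGS protein that is abundant in microglia and also present in neurons, and its gene lies at chr7:135517135-135561687 (mm9, ENSMUSG00000030844). Its level was 14.0 FPKM in A, 10.5 and 15.3 in B1 and B2, 15.6 in C and 16.7 in D, 21.2 in E, then 25.4 in F. F was the highest and B1 the lowest, and the ratio of 1.46 between B2 and B1 was the largest litter difference of any member. F was 1.81 times A, a log2 ratio of 0.86, or 0.30 relative to the median gene. The slope was 0.20 ± 0.05 (limma adjusted p = 0.0347), or 0.10 relative to the median gene, in the direction in which 35.5% of tested genes passed. The call held in 9 of 15 alternative fits, with adjusted p from 0.0136 to 0.178. It was lost under median of ratios scaling (adjusted p = 0.139), with mitochondrial genes left out of the total (0.122), after GC correction (0.125), without library A (0.0874), without library F (0.178) and with no filter (0.0567). The slope was positive in all 15. All 10 microglial markers were above 0 in every library, with sums of 124 FPKM in A, 93.5 and 80.7 in B1 and B2, 98.6 in C and 101 in D, 112 in E, then 148 in F. Of the 10, 6 were highest in F and 3 in A. The part of microglial content in the level of Rgs10 was not tested.

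Rgs12 and Rgs14, the members with a GoLoco motif, were both higher in the outer segments. Rgs12, a large scaffold for Ras and MAP kinase components, lies at chr5:35292094-35382285 (mm9, ENSMUSG00000029101). Its level was 13.8 FPKM in A, 4.46 and 4.11 in B1 and B2, 2.72 in C and 4.36 in D, 7.17 in E, then 10.4 in F. A was the highest and C the lowest, a ratio of 5.07, and the interval of A, 11.2 to 16.4 FPKM, overlapped only that of F. The curvature was 0.30 ± 0.05 (limma adjusted p = 0.0159 for both terms together). The call held in 11 of 13 alternative fits, with adjusted p from 0.0143 to 0.825, and was lost when only a slope was fitted and without library A (adjusted p = 0.0546). Rgs14, known from hippocampal area CA2 as a brake on synaptic plasticity, lies at chr13:55471093-55486048 (mm9, ENSMUSG00000052087). Its level was 11.8 FPKM in A, 8.66 and 6.90 in B1 and B2, 8.05 in C and 6.76 in D, 9.92 in E, then 12.8 in F. A and F were the highest, with overlapping intervals, and D the lowest. Under the 3 other scalings A was above F. The curvature was 0.12 ± 0.03 (limma adjusted p = 0.0421 for both terms together), and 10.8% of tested genes passed with a positive curvature. For Rgs14 neither term passed alone (limma adjusted p = 0.386 for the slope and 0.0551 for the curvature). The call held in 10 of 15 alternative fits, with adjusted p from 0.0274 to 0.635. It was lost without library F (0.151), without library A (0.118), without library B2 (0.0511), with no filter (0.0633) and with a slope only (0.635). Gfap, an astrocyte marker dense at the pial surface and in white matter, followed the same arrangement, with 34.4 FPKM in A, 4.42 in C and 126 in F, while the other 6 astrocyte markers were lower in A than in B1. The 7 together ran from a sum of 292 FPKM in A to 598 in F, and all were above 0 in every library. The part of astrocytes in the levels of Rgs12 and Rgs14 was not tested.

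Pairs of segments were also compared without a fit. A pair was called when the deposited 95% intervals did not overlap, with both B libraries on the same side, and when the ratio exceeded 2.26, the 95th percentile of the ratio between B1 and B2 over all kept genes. No p-value belongs to this rule, since all segments except B had 1 library. Of the 135 pairs of segments over the 9 members, 16 were called (11.9%), or 5 for Rgs4, 4 for Rgs8 and 7 for Rgs12, against 14.1% of pairs over all genes within the 100% interval limit, which all 9 members meet. For the 6 members within the 50% limit, 5 of 90 pairs were called (5.56%), against 13.5% of pairs over all kept genes. Rgs4 was called lower in F than in B, C and D, and lower in E than in B. Rgs8 was called lower in C than in A, E and F, and lower in D than in F. Rgs12 was called higher in A than in B, C and D, higher in F than in B, C and D, and higher in E than in C. Among kept genes the same rule called 12.9% between A and B, 30.0% between A and C and 32.0% between A and D, so superficial against middle calls were common. It called 5.16% between B and E, 9.2% between B and F, 5.47% between C and E, 10.3% between C and F and 8.38% between D and F. Rgs3, Rgs8 and Rgs12 are not among the kept genes, and shares for single pairs were not computed within the 100% limit. Between the outer segments A and F, only Rgs4 was called, with a ratio of F to A of 0.25, whereas 35.4% of kept genes were called between A and F (26.9% higher in F and 8.45% lower). Intervals alone separated 87 of the 135 pairs (64.4%), against 53.6% of pairs over all genes within the 100% limit, and 60 of the 90 pairs of kept members (66.7%), against 59.6% over all kept genes. Of the 6 kept members they separated A from F for Rgs4, Rgs6 and Rgs10, against 85.2% of kept genes, and they did so for Rgs8, which is not a kept gene. The same intervals also separated the litters B1 and B2 for Rgs4, Rgs6, Rgs7, Rgs10 and Rgs14, as for 66.4% of kept genes, so nonoverlap by itself includes differences between litters.

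The transcripts of the members gave a finer view of Rgs8, Rgs12, Rgs3 and Rgs2. Cufflinks splits the fragments of a gene among its transcripts, and a transcript not listed in a library may be one that received none of the shared fragments. Such a transcript was set to 0 in that library, with an interval of no width that is not a deposited one. No transcript of Rgs8, Rgs12 or Rgs3 met the interval limit of the reported fit, so the levels given for their transcripts are imprecise. For Rgs8, Rgs8-201 had 5.76 FPKM in A, 3.90 and 4.84 in B1 and B2, 4.16 in C and 3.48 in D, 10.5 in E, then 12.5 in F. E and F stood above all other libraries with nonoverlapping intervals. Rgs8-202, which begins at the third start site printed above, had 8.58 FPKM in A, 6.85 and 5.29 in B1 and B2, 1.25 in C and 4.29 in D, 4.52 in E, then 9.92 in F, so A and F were both high. Rgs8-203 was not listed in 4 libraries and reached 2.74 FPKM in A. The low level of Rgs8 in C thus came with a low Rgs8-202, and the high level in E with Rgs8-201, which made up 69.9% of the transcript sum there and 72.1% in C against 33.7% in A.

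Cufflinks assigned the largest share of the Rgs12 level to Rgs12-204 in A and to Rgs12-206 in F. This contrast rests on a single library for each segment and on transcripts that did not meet the interval limit of the reported fit. Rgs12-206 had 2.52 FPKM in A, 1.11 and 1.64 in B1 and B2, 0.813 in C and 2.31 in D, 5.49 in E, then 7.51 in F, and its intervals in E and F lay above those of all other libraries. Rgs12-204 had 5.57 FPKM in A (interval 4.01 to 7.13) and at most 1.02 elsewhere, and was not listed in E and F. Rgs12-210, a retained-intron transcript, and Rgs12-211 had 2.37 and 2.51 FPKM in A and were not listed in the other libraries. The long form Rgs12-201 ran from 0.629 FPKM in E to 1.84 in B1, and its interval in B1 lay above those of all libraries except C. Rgs12-202 reached 1.33 FPKM in F, Rgs12-203 0.794 in F and Rgs12-205 0.467 in B2. For Rgs3, the retained-intron transcript Rgs3-209 had 0.308 FPKM in A, 1.03 in E and 3.65 in F, while the retained-intron transcript Rgs3-207 had 1.77 in A and 0.67 in F, with nonoverlapping intervals of A and F in both cases. Among coding forms of Rgs3, Rgs3-204 had 0.95 FPKM in A and 0.632 in F, and Rgs3-205 had 0.423 in A and was not listed in F. Rgs3-211 and Rgs3-213 were not listed in A and F, with highest values of 0.658 FPKM in B1 and 0.574 in C. Cufflinks thus assigned most of the Rgs3 level in F to a transcript annotated as retaining an intron.

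**Figure D3:**
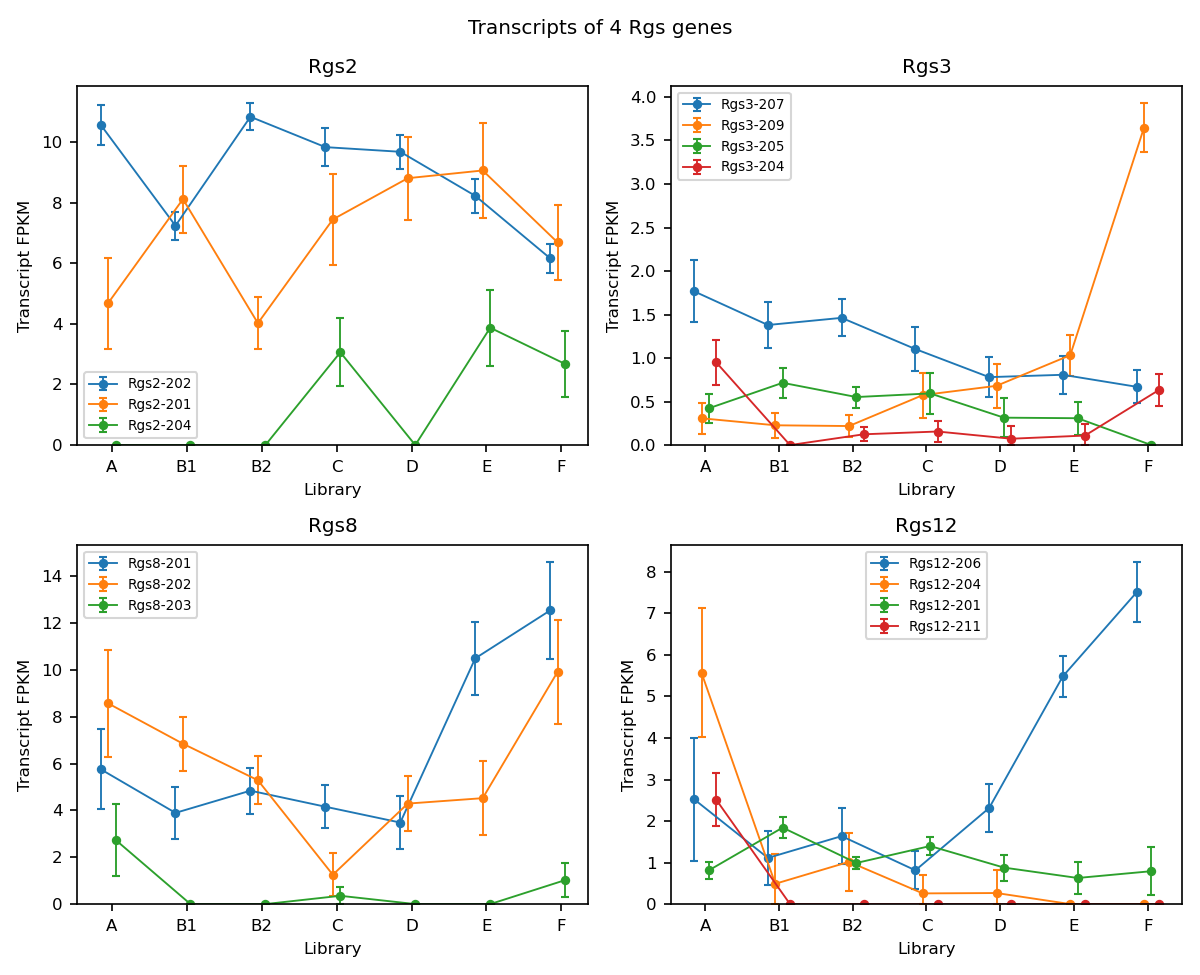
Transcript levels (FPKM, linear axis from 0) of Rgs2, Rgs3, Rgs8 and Rgs12 in the 7 libraries, with deposited 95% intervals, for up to 4 transcripts per gene with the highest means. A transcript not listed in a library is drawn at 0. Rgs8-201 and Rgs12-206 are highest in E and F, Rgs12-204 in A and Rgs3-209 in F, and Rgs2-201 and Rgs2-202 trade places between B1 and B2.

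Transcripts of a gene were called as moving in opposite directions when one was higher and another lower between a pair of libraries, both by nonoverlapping intervals. With transcripts whose widest interval was at most 50% of their mean, 1 member (Rgs2) could be compared and it met the criterion, against 82.0% of the 2028 genes that could be compared. For Rgs2, the coding form Rgs2-202 had 10.6 FPKM in A, 7.24 and 10.8 in B1 and B2, 9.83 in C and 9.68 in D, 8.23 in E, then 6.16 in F. Rgs2-201, annotated as a target of nonsense-mediated decay, had 4.68 FPKM in A, 8.12 and 4.02 in B1 and B2, 7.45 in C and 8.81 in D, 9.06 in E, then 6.69 in F. The 2 forms also moved in opposite directions between the litters B1 and B2, as did those of 38.6% of the genes, so such an exchange was also seen between replicates of 1 segment. Rgs2-204 was listed only in C (3.06), E (3.87) and F (2.68). With a limit of 100%, 4 of 4 members met the criterion (Rgs2, Rgs3, Rgs7 and Rgs8), against 74.3% of the 3841 genes that could then be compared.

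The remaining members had 1 main transcript. Rgs4-201 carried the whole level of Rgs4 except in B1, where 35.8 FPKM was assigned to Rgs4-202. Rgs10-201 went from 14.0 FPKM in A to 21.7 in F, and the short Rgs10-206, of 373 nt, was listed only in E (2.85) and F (3.72). The Rgs7 model of 1861 nt (ENSMUST00000111184) went from 24.1 FPKM in A to 20.5 in F with its highest value of 40.0 in B2, while that of 1413 nt (ENSMUST00000085853) went from 3.93 in A to 5.87 in F. Rgs6 (ENSMUST00000021642) and Rgs14 (Rgs14-201) had a single transcript, so their gene and transcript levels are the same. Of the 28 transcripts that reached 10% of their gene's transcript sum in any library, 9 were higher in F than in A by nonoverlapping intervals, 9 were lower and 10 overlapped. These counts include transcripts not listed in A (such as Rgs10-206) or in F (such as Rgs12-204), which were set to 0 there with an interval of no width. They also include some not listed in either, such as Rgs4-202, counted as overlapping. The share over all transcripts was not computed, so the counts are a description only.

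Beside the members, 7 other Rgs genes had a mean of at least 1 FPKM. Of these, 4 passed the interval limit, and among those 4 only Rgs16 passed the trend test, against 43.5% of all genes tested. Rgs16 rose from 1.05 FPKM in A to 5.56 in F (slope 0.33 ± 0.08, limma adjusted p = 0.0342). Rgs17 had a mean of 21.3 FPKM, Rgs5, a marker of pericytes, 19.9 and Rgs20 16.9, and their trends did not pass (limma adjusted p = 0.335, 0.136 and 0.191). Rgs20 was lowest in A at 11.6 and highest in F at 23.7 FPKM. The other 3 exceeded the interval limit and entered only the fit with the 100% limit. There Rgs9 passed (slope 0.43 ± 0.11, limma adjusted p = 0.0224), against 40.1% of all genes. Rgs11 and Rgs19 did not pass (limma adjusted p = 0.0582 and 0.189). Rgs9, an R7 member typical of the striatum, had 4.57 FPKM in A, 1.34 and 1.47 in B1 and B2, 2.56 in C and 3.59 in D, 6.69 in E, then 10.6 in F. Rgs9 and Drd1 both went up in the order B, C, D, E, F, and the part of striatal tissue in the level of Rgs9 was not tested. Rgs11, also of the R7 family, had 13.5 FPKM in A and 5.75 to 10.1 elsewhere, and Rgs19 went from 7.31 in A to 11.1 in F. Rgs1, Rgs13, Rgs18 and Rgs22 stayed under 0.1 FPKM in every library.

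**Figure D4:**
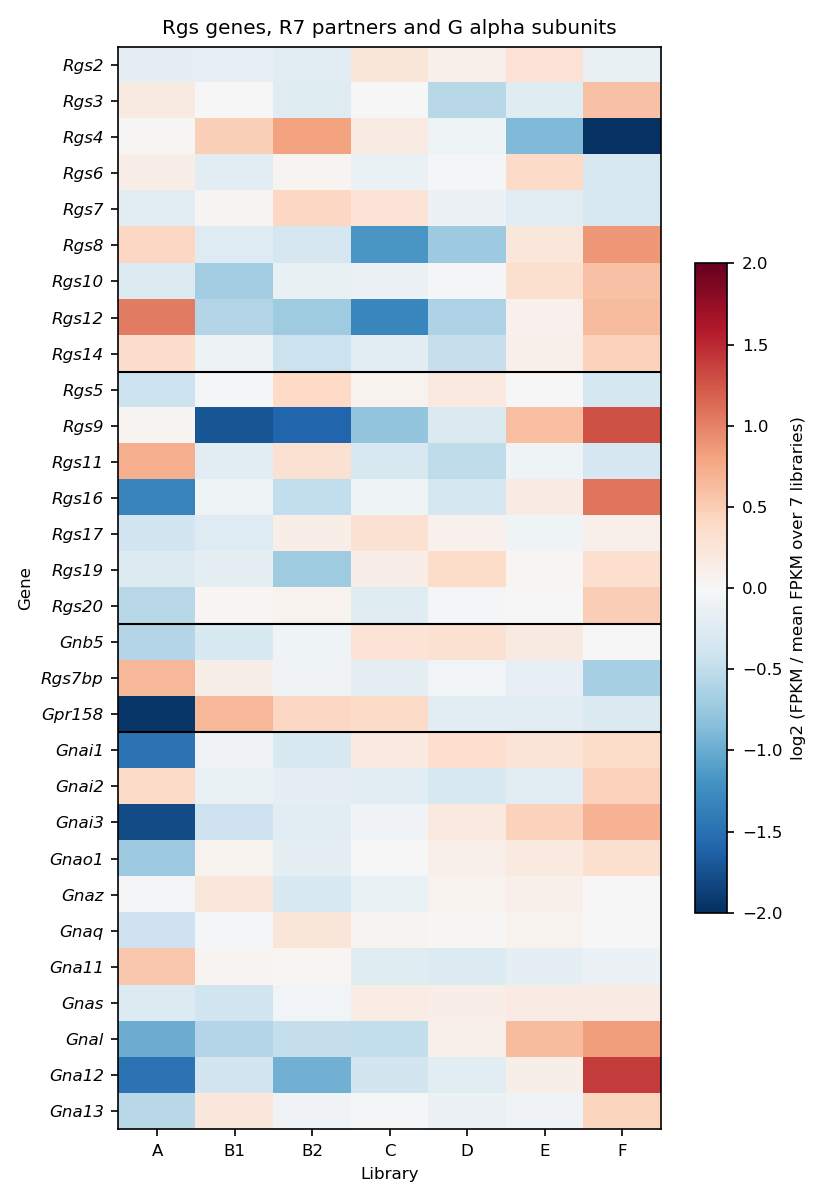
Level of each gene in the 7 libraries as log2 of FPKM over its own mean (red above, blue below), for the 9 members (top block), 7 other Rgs genes, 3 partners of the R7 family and 11 G protein alpha subunits with a mean of at least 1 FPKM. Rgs4 in F, Gpr158 and Gnai3 in A, and Rgs9 in B1 and B2 are the deepest blue, and Rgs9, Rgs16 and Gna12 are highest in F.

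Of 44 genes tested among the other Rgs genes, R7 partners, subunits, GoLoco proteins and effectors, 18 passed the trend test and 16 of those had a slope above 0, beside 43.5% of all genes tested, 81.5% of whose calls had a slope above 0. Of the alpha subunits, 11 of the 16 in the list were tested, 6 passed with a positive slope, 1 with a negative slope and 4 did not pass, beside 35.5% and 8.06% of all genes tested, and their median slope was 0.11 against 0.09 for all genes. After median of ratios scaling 12 of the 44 passed, 8 of them with a slope above 0, when 52.6% of the calls over all genes had a slope above 0. Among the inhibitory class, the main targets of RGS proteins, Gnai1 rose from 19.7 FPKM in A to 70.9 in F (slope 0.28 ± 0.06, limma adjusted p = 0.00907) and Gnai3 from 1.83 to 10.3 (0.39 ± 0.06, adjusted p = 0.00739). Gnao1, the most abundant alpha subunit of this class, rose from 152 to 316 FPKM (0.16 ± 0.04, adjusted p = 0.0442). Gnai2 passed with a flat slope of 0.01, since it stood at 86.9 FPKM in A, 54.2 in D and 92.0 in F (adjusted p = 0.0285). Gnaz had 29.7 FPKM in A and 30.1 in F (adjusted p = 0.917). These are limma fits of the same 7 libraries.

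In the Gq class, Gna11 fell from 59.3 FPKM in A to 37.5 in F (slope -0.11 ± 0.03, limma adjusted p = 0.0293), and Gnaq went from 41.3 to 55.1 without passing (adjusted p = 0.341). In the stimulatory class, Gnal rose from 12.8 FPKM in A to 45.4 in F (0.37 ± 0.04, adjusted p = 0.0044), while Gnas, the most abundant alpha subunit of all, went from 529.5 to 717 (adjusted p = 0.158). Gna12 had the highest share of its level in F of the tested alpha subunits, at 41.6%, and rose from 10.6 to 78.0 FPKM (0.46 ± 0.08, adjusted p = 0.00937), and Gna13 went from 5.82 to 11.7 (adjusted p = 0.341). Gnat1, Gnat2, Gna14 and Gna15 stayed under 1 FPKM in every library. These adjusted p-values are from limma.

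Of the beta subunits Gnb1 passed for both terms together (slope 0.11 ± 0.04, limma adjusted p = 0.0462) and Gnb2 did not (adjusted p = 0.158). For Gnb1 neither term passed alone (limma adjusted p = 0.0594 for the slope and 0.122 for the curvature). Of 8 gamma subunits tested, 3 passed with a positive slope and 1 with a negative one, shares near those of all genes tested (35.5% and 8.06%). Gng12 rose from 6.66 FPKM in A to 68.9 in F, Gng11 from 7.07 to 30.0, and Gng13, known from taste receptor cells, fell from 128 to 47.4 (limma adjusted p = 0.0033, 0.0124 and 0.0492). Of the other GoLoco proteins, Gpsm2 rose from 1.52 to 4.14 FPKM (limma adjusted p = 0.00628), while Gpsm1, Pcp2 and Rap1gap did not pass. Of 12 effectors tested, 3 passed, all with a positive slope, beside 35.5% of all genes tested. Among the effectors tested Adcy7 had the lowest share of its level in A (4.53%) and Plcb4 the highest (22.9%), and Plcb1 the lowest share in F (10.4%) and Adcy5 the highest (25.8%), and none of these 4 passed.

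Likeness among the members, given as Pearson's r of log2(FPKM + 0.1) over the 7 libraries, is a description without a test, because libraries share their depth and composition. The closest pair was Rgs8 and Rgs12 (r = 0.91), followed by Rgs12 and Rgs14 (0.85) and Rgs8 and Rgs14 (0.85). Rgs4 and Rgs10 were the most opposed pair (-0.85), and Rgs4 and Rgs7 were alike (0.77). The closest pair thus crosses the R4 and R12 families, and within the R4 family Rgs4 and Rgs8 were opposed (-0.68). Over the 10144 kept genes that averaged 1 FPKM or more, Fndc5 (0.998) and Gm12992 (0.991) were most like Rgs4. Fndc5, the precursor of irisin, had 45.3 FPKM in A, 50.5 in B1, 59.0 in B2 and 20.9 in F. Bcl10 (0.996) and Bnip3l-ps (0.986) were most like Rgs10, Pdzrn4 (0.991) and Btg2 (0.975) most like Rgs12, Adarb2 (0.966) and Ankrd63 (0.958) most like Rgs8, and Safb (0.988) and Yju2 (0.977) most like Rgs14. Ankrd63 had 5.86 FPKM in A, 0.567 in C and 7.68 in F, the same low point as Rgs8. Nrep (0.959) and Gfpt2 (0.957) were most like Rgs7, Ccnf (0.963) and Iqgap2 (0.939) most like Rgs2, Ssbp3 (0.951) and Rrp9 (0.948) most like Rgs3, and Pam (0.932) and ENSMUSG00000087372 (0.902) most like Rgs6.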

How the data were processed

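RNA from 7 S1 libraries was analysed; 12 dorsal and lateral samples were not analysed here. Per the labels and the study's methods, the authors aligned paired-end reads of 50 nt to mm9 with TopHat 1.0.13 and estimated levels of Ensembl 57 transcripts with Cufflinks 0.8.3. The deposited tables hold FPKM with 95% confidence intervals, normalised by the authors per exon length and per library size in mapped fragments, and the deposited coverage signal of each transcript. Coverage times length over read length gave the estimated fragments per library. No raw counts were used, so no count model was fitted. The libraries do not mark strand.

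The members and gene lists were chosen with earlier results of these data known. Identifiers were matched to symbols through GENCODE M21 (GRCm38). It also gave transcript names and types, the gene of each transcript it names, the GC content of genes, and the transcripts matched to RefSeq start sites. Genes with a widest interval of at most 50% of their mean were kept. The trend test used limma 3.58.1 in R 4.3.3 (pseudocount 0.1 FPKM), the rest Python 3.11.15. On simulated data of 11409 genes, few of which were given a change, the trend test recovered 62% of those with a 4-fold change from A to F. It recovered 2% of those with a 2-fold change. The adjustment is stricter when few genes change, and 43.5% of genes passed in the reported fit, so these shares do not give the recovery there. A trend that did not pass may still be present. All members were named. Of each other list the genes with the lowest and highest share in A and in F, Rgs genes of at least 1 FPKM, the R7 partners and the alpha subunits were named, with the 2 most similar genes per member. Alternatives covered pseudocount, filter, scaling, GC content, trend form and left-out libraries.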

Additional observations from a re-analysis of the deposited data

How the results depend on the processing

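No paired analysis was possible because A, C, D, E and F were each 1 pool of all 8 mice, and only B was split by litter. The fall of Rgs4 passed in every trend fit with a slope, and not with segments as a factor. Members with a trend numbered 3 in the reported fit, 5 with an interval limit of 100%, 5 with a mean of at least 1 FPKM and no interval limit, 1 without library A, 1 without library F, 2 to 3 without either B library, and 0 of 6 when the 6 segments were a factor, which leaves 1 residual degree of freedom (limma, 1 member and 2111 of 11409 genes at an unadjusted p below 0.05). Over all genes 4968 passed in the reported fit, 3263 of 10801 after GC correction, 2132 with a slope only and 1147 without library A. The share of calls with a slope above 0 was 81.5%, but 72.1% with mitochondrial genes left out of the total, 53.8% after GC correction and 52.6% with median of ratios scaling. Signalling genes with a trend numbered 18, but 9 with a slope only, 4 without library A and 0 with segments as a factor, and 14 to 25 without either B library. The 16 called pairs of segments became 87 without the litter limit and 28 after GC correction, and the 1 member called between A and F became 4 and 3. Members with transcripts moving in opposite directions numbered 1 of 1, 4 of 4 with an interval limit of 100% and 6 of 7 with all listed transcripts. The shares over all genes that could be compared were 82.0%, 74.3% and 73.1%. Slopes of 6 members changed sign. Under median of ratios scaling they were -0.0493 for Rgs2, -0.0632 for Rgs3, -0.0442 for Rgs12 and -0.0472 for Rgs14. After GC correction they were -0.11 for Rgs2 and -0.0036 for Rgs12. With mitochondrial genes left out of the total the slope was -0.0088 for Rgs3. Without library F the slopes were -0.11 for Rgs3, 0.062 for Rgs6, -0.0734 for Rgs8, -0.14 for Rgs12 and -0.0513 for Rgs14, and without library A the slope of Rgs6 was 0.0077. The cause of these changes was not tested. Of the 27 log2 ratios of F to A under other scalings, 24 moved by more than 1 SD of B1 and B2, and Rgs4 stayed between -2.91 and -2.28. The single library of each outer segment and 7 libraries in all set the limit on every trend.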

Other observations

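On chromosome 1, Rgs4 and Rgs8 were each set beside a neighbouring Rgs gene, and neighbours of the other members were not searched for. Rgs5 lies 45.7 kb from Rgs4 in mm9, with no other listed gene between them, and had 14.8 FPKM in A, 19.4 and 26.3 in B1 and B2, 20.8 in C and 22.7 in D, 19.8 in E, then 15.6 in F. Rgs16 lies 42.7 kb from Rgs8, with no other listed gene between them, and had 1.05 FPKM in A, 2.48 and 1.87 in B1 and B2, 2.50 in C and 2.08 in D, 2.98 in E, then 5.56 in F. Rgs4 and Rgs5 were both highest in B2. Rgs8 was high and Rgs16 lowest in A, and both were highest in F. Pearson's r of log2(FPKM + 0.1) over the 7 libraries was 0.58 for the first pair and 0.28 for the second.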
